A study of Mus musculus with 6 samples.

Results

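The genes described here are 42 chaperones and co-chaperones of the cytosol and the mitochondria, followed in mouse CD4 T cells that carried either of 2 retroviral vectors. The members are a list of heat shock, chaperonin and co-chaperone gene symbols, matched without regard to case, and the values of a gene's transcripts were summed. All 42 were among the 22642 genes of the deposited table, and all 42 were among the 10870 genes tested, which reached 1 FPKM (fragments per kilobase of transcript, scaled to library size) in at least 3 of 6 libraries. In 3 libraries the cells carried MigR1, a retroviral vector marked by GFP, with the cDNA of Blimp-1, and in 3 others they carried the empty MigR1 vector. Blimp-1 is a transcriptional repressor encoded by Prdm1. All cells began as naive CD4 T cells of wild-type C57/BL6 mice, were activated on antibodies to CD3 and CD28 with IL-4 and IFN-gamma blocked, were transduced after 36 hours, and were sorted for GFP after 2 days more. The growth protocol gives the activation as 3 days. The age of the mice is not given in the sources used here. The Blimp-1 cDNA was expressed from the retrovirus, in cells that keep their own Prdm1 gene.

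Chaperones hold newly made or damaged proteins until they reach their fold. The HSP70 proteins bind short exposed stretches under the control of J proteins and of nucleotide exchange factors, HSP90 acts later on a narrower set of clients such as kinases and steroid receptors, and the TRiC ring encloses actin and tubulin handed over by prefoldin. In the mitochondrial matrix mtHSP70 and the HSP60 chamber with its HSP10 lid do the same for imported proteins. Activated T cells make large amounts of protein, and the heat shock factor HSF1 is a known activator of many of these genes, through elements built of the unit GAA and its complement TTC in alternation.

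Prdm1 itself was at 9.91, 12.8 and 9.45 FPKM in Blimp-1 replicates 1 to 3, against 0.996, 2.03 and 1.38 FPKM in empty vector replicates 1 to 3, with a log2 fold change of 2.26 (SE 0.19; limma adjusted p = 0.0568 without and 0.00499 with the replicate number as a block). T cell markers were high in all libraries: the 7 analysed of 8 listed summed to 1807 to 2007 FPKM with Blimp-1 and 1795 to 2136 FPKM with the empty vector. The summed markers of B cells stayed at 1.48 to 5.84 FPKM with Blimp-1 and 1.63 to 4.79 FPKM with the empty vector, those of myeloid cells at 1.08 to 1.35 FPKM with Blimp-1 and 0.513 to 1.41 FPKM with the empty vector, and those of CD8 T cells at 7.94 to 10.97 FPKM with Blimp-1 and 7.18 to 10.4 FPKM with the empty vector. Of 3 NK cell markers Ncr1 was listed at 0 throughout. Of the erythroid list, whose 2 analysed genes summed to 0.491 to 3.09 FPKM with Blimp-1 and 2.10 to 18.9 FPKM with the empty vector, Alas2 was at 0.162, 0.173 and 0.110 FPKM with Blimp-1 and at 0.0888, 0.0947 and 0.151 FPKM with the empty vector. The haemoglobin gene Hba-a1 was at 0.663, 0.318 and 2.98 FPKM with Blimp-1 and at 2.01, 2.08 and 18.7 FPKM with the empty vector. Estimated depth was 45.7, 49.6 and 36.0 M reads in Blimp-1 replicates 1 to 3 and 19.4, 41.4 and 18.2 M in empty vector replicates 1 to 3, so that a level of 1 FPKM stood for about 18.2 reads per kilobase in the shallowest library. On the first principal component, which held 52.9% of the variance, empty vector replicate 3 lay at 33.7 and the other 5 libraries between -22.7 and 12.6. Because these are bulk samples, fewer cells of a type and less RNA per cell cannot be told apart.

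Some members carry sequences of the form of heat shock elements near their start, and these are shown first. RefSeq windows of GRCm38.p6, from 250 bases before to 50 after a gene's start, were found for 33 of the 42 members. They were searched for the 2-unit forms GAANNTTC and TTCNNGAA and for the 3-unit forms, GAANNTTC continued by NNGAA and TTCNNGAA continued by NNTTC, where N is any base. Each 2-unit form reads the same on both strands, the 3-unit forms are each other's complement, and each 3-unit match contains 2-unit matches. A 3-unit form was present in 4 of the 33 members, 12.1%, against 0.662% of 27025 genes with a window. A 2-unit form was present in 12 of the 33, 36.4%, against 16.97% of all genes. A match shows letters in a window and not that a factor was bound there. Cct4, Pfdn1, Hspa8, Dnajc2, Hsp90aa1, Hsp90ab1, Hspa9, Hsf1 and Ppid had no window.

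The 3-unit matches belonged to Hspe1 and Hspd1, which lie head to head and share a single stretch read on opposite strands, to Dnajb6, and to Hsph1. The first 3 lines below give them in turn, with the bases of the GAA and TTC units of 3-unit matches in capitals. For the last 2 lines, Fkbp4 and Stub1, capitals mark the 2-unit form, shown because both genes were among the members with the largest differences. Ahsa1, Ppia, Hspbp1, Pfdn2 and Cct3, also among the 8 largest absolute log2 fold changes, had windows without either form. Bag3, Cct2, Cct5, Cct6a, Cdc37 and Dnaja1 held a 2-unit form too and are not printed. The Hspe1 stretch (GRCm38.p6, chr1:55088019-55088116, plus strand) holds 2 overlapping 3-unit forms from position -89, counted from the Hspe1 start. The Dnajb6 stretch is chr5:29735812-29735897, plus strand, with the element from position -46, and the Hsph1 stretch is chr5:149636280-149636308, minus strand, with the element from position 15. Fkbp4 is on chr6:128438760-128438847, minus strand, and Stub1 on chr17:25832995-25833082, minus strand, with elements from positions -151 and -123.
Hspe1: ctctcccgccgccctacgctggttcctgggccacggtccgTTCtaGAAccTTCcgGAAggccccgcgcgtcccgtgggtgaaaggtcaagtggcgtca
Dnajb6: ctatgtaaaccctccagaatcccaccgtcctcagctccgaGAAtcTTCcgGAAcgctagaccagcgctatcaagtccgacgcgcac
Hsph1: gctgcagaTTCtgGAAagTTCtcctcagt
Fkbp4: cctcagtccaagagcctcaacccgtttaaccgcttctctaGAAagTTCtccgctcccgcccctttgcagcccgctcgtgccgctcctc
Stub1: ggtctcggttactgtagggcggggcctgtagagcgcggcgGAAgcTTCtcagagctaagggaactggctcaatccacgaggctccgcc

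As a group the members were abundant. Their mean level over the 6 libraries had a median of 46.7 FPKM, against 11.4 FPKM for all tested genes, and 14 of the 42 were among the 1000 highest genes. Together they held 1.05%, 1.13% and 1.21% of all FPKM in Blimp-1 replicates 1 to 3, and 1.11%, 1.12% and 1.38% in empty vector replicates 1 to 3. The vectors overlapped, with the highest share in empty vector replicate 3. Much of the share was that of Ppia and Hspa8, and the order of the other libraries depends on them. Without both genes, a choice made after the data were seen, the shares were 0.579%, 0.564% and 0.572% with Blimp-1 and 0.556%, 0.525% and 0.630% with the empty vector. Without Ppia alone they were 0.820%, 0.883% and 0.885% with Blimp-1 and 0.816%, 0.847% and 0.908% with the empty vector. Ppia and Hspa8 ranked 64th and 69th of the tested genes by mean level, and Bag3, the lowest member, ranked 8634th.

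**Figure D1:**
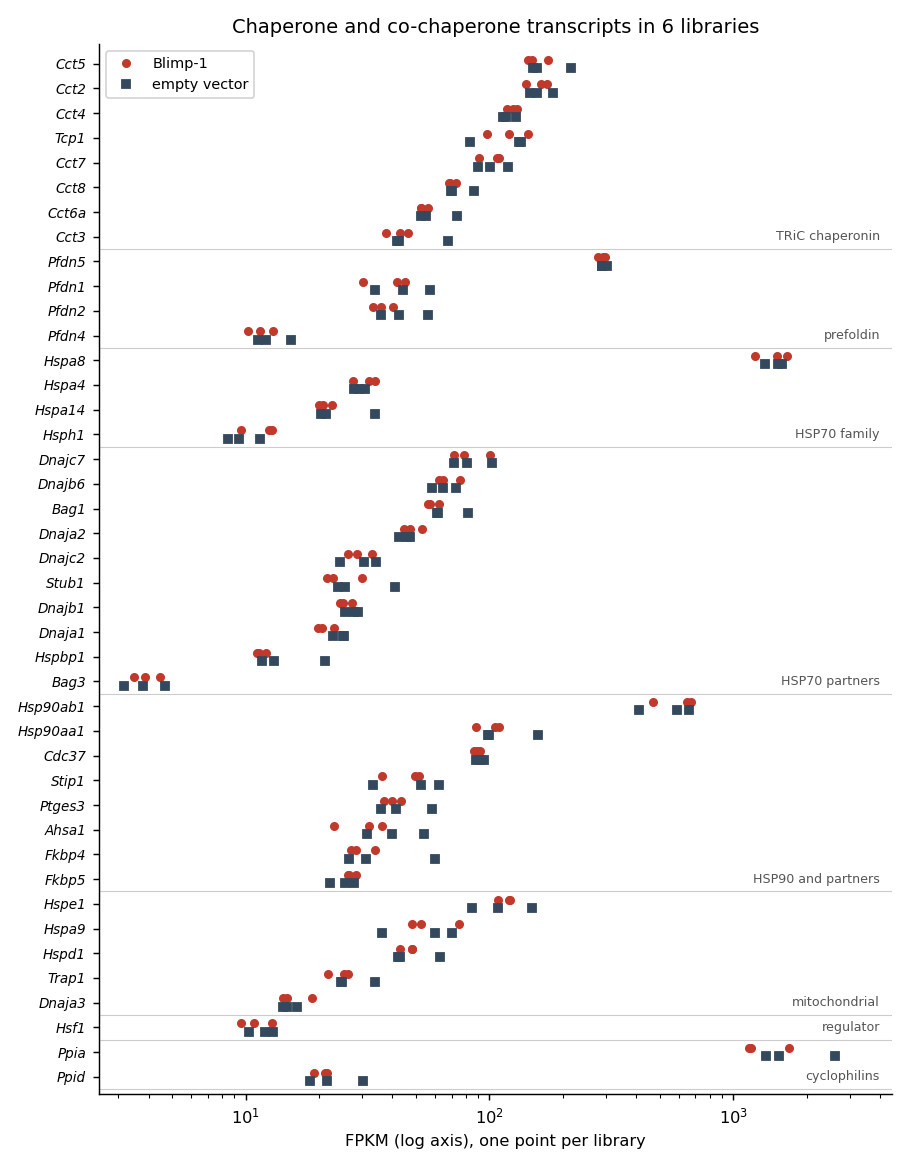
FPKM of each of the 42 members on a log axis, with 3 Blimp-1 libraries (circles) above 3 empty vector libraries (squares) for every gene, grouped by role and ordered by mean level. Levels run from about 3.17 FPKM for Bag3 to 2622 FPKM for Ppia, and in every row the points of the vectors overlap in range.

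No member passed the test for a difference between the vectors over all 6 libraries. With limma on log2(FPKM + 1), without using the replicate numbers, 0 of 42 members were called higher or lower at an adjusted p of 0.05, and so were 0.0% of tested genes, in each direction and in both, and the smallest adjusted p among the members was 0.998. At an unadjusted p below 0.05 there were 0 of 42 members and 1.13% of all tested genes (0.672% higher, 0.46% lower). The values of the vectors overlapped for all 42, where 4.63% of tested genes had no overlap (2.29% higher, 2.34% lower). In this fit 37 members had a log2 fold change within 0.25 of 0, and the median absolute log2 fold change was 0.10 for the members and 0.11 for all tested genes. The 95% intervals nevertheless stay wide. Across the members they reached from a log2 fold change of -1.04 for Ppia to 0.74 for Hspa9, with standard errors of 0.11 to 0.29, so that sizeable differences of single genes could have gone uncalled.

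Libraries of the same replicate number deviated together, with correlations of 0.80, 0.81 and 0.70, so the vectors were also compared within numbers. With the replicate number as a block, 0 of 42 members passed over all genes, against 0.0184% of tested genes (0.0092% in each direction), and Ppia had the smallest adjusted p among members (0.144). At an unadjusted p below 0.05 in the blocked fit, 7 members were lower with Blimp-1 (16.7%, against 10.7% of tested genes) and 0 were higher (9.75% of tested genes), where 20.4% of tested genes were in either direction. Lower values in 3 of 3 pairs were seen for 10 members, 23.8%, against 22.8% of tested genes, a share near the background. Higher values in 3 of 3 pairs were seen for 6 members, 14.3%, against 22.8%. By means, 30 of 42 members (71.4%) were lower with Blimp-1, against 52.2% of tested genes.

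The direction of the differences varied between the 3 pairs. In pair 1, the libraries numbered 1, 21 of 42 members were lower with Blimp-1 (49.2% of tested genes were), and the median log2 difference was -0.01. In pair 2, 15 members were lower (50.2% of tested genes), with a median of 0.03. In pair 3, 34 members were lower, 81.0% against 51.1% of tested genes, with a median of -0.33 where all tested genes had -0.01. For 30 of the 42 the difference of pair 3 was the largest of the 3 in absolute size, as it was for 53.3% of tested genes. The order of the members by pair is drawn in the plot of differences within each replicate number.

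**Figure D2:**
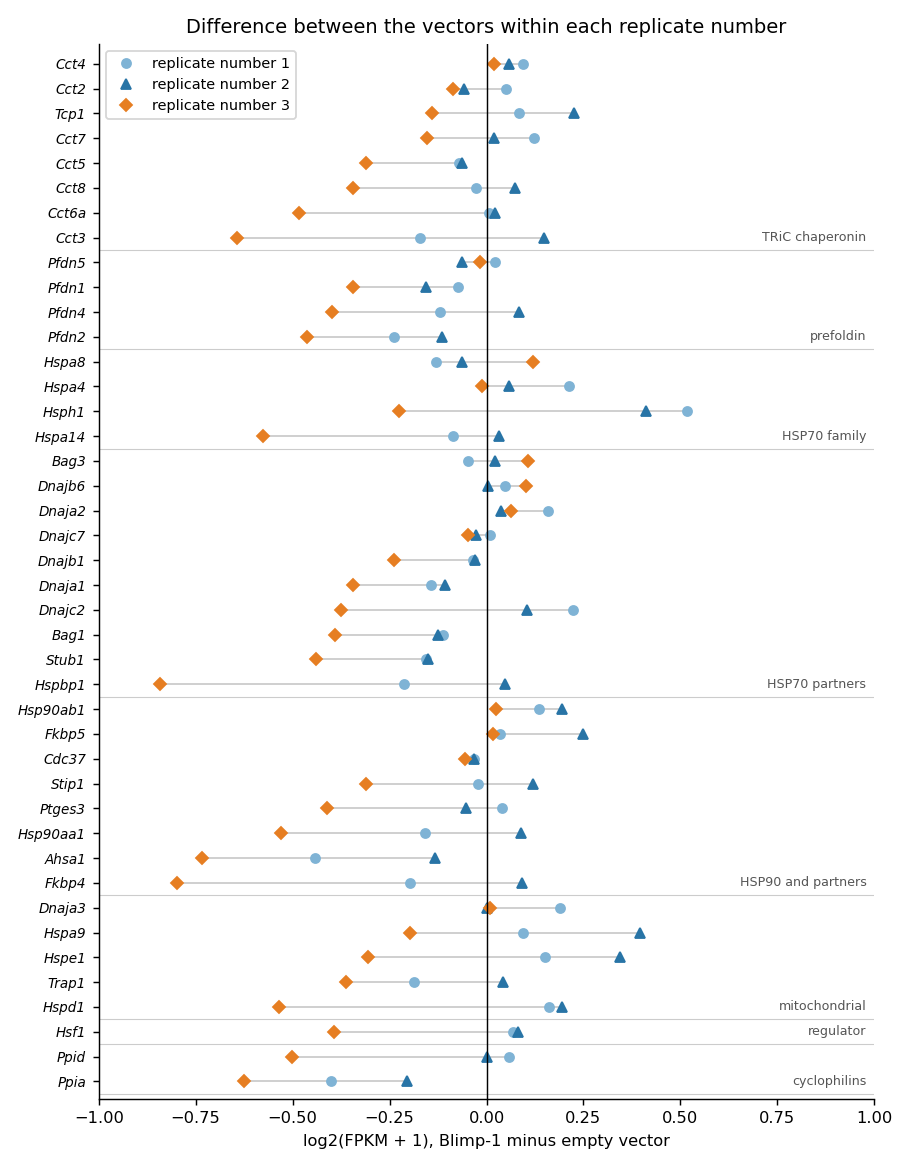
Difference in log2(FPKM + 1), Blimp-1 minus empty vector, for each member within replicate numbers 1 (light circles), 2 (dark triangles) and 3 (orange diamonds), grouped by role. Diamonds lie left of 0 for 34 of 42 genes, while circles do so for 21 and triangles for 15.

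Within pair 3, empty vector replicate 3 departed further from the other libraries of its vector, by the median over the members. It was above both other empty vector libraries for 33 of 42 members, 78.6% against 37.9% of tested genes. Among genes of a mean of 10 FPKM or more, a limit chosen after the data were seen, it was so for 33 of 41 members (80.5%) against 41.4% of 5934 genes, and 34 of 41 (82.9%) were lower with Blimp-1 in pair 3, against 52.7%. Blimp-1 replicate 3 was above both other Blimp-1 libraries for 18 of 42 members, 42.9% against 30.7% of tested genes. Relative to the mean of the other libraries of its vector, Blimp-1 replicate 3 had a median difference of 0.06 over the members and empty vector replicate 3 one of 0.35, on the log2 scale, where all tested genes had -0.02 and 0.00. By role, the Blimp-1 replicate 3 median was below 0 for the HSP70 family (-0.06), HSP70 partners (-0.12), mitochondrial genes (-0.17) and Hsf1 (-0.27). For these, empty vector replicate 3 had 0.19, 0.10, 0.44 and 0.19. The Blimp-1 replicate 3 median was above 0 for TRiC (0.07), prefoldin (0.14), HSP90 and partners (0.18) and the cyclophilins (0.30). There, empty vector replicate 3 had higher medians, of 0.32, 0.43, 0.56 and 0.72. Without empty vector replicate 3 the median log2 fold change of the members was 0.01, against -0.08 with all libraries. That library was also the shallowest and held the most Hba-a1, and the part of depth or of other cells in its chaperone levels was not tested.

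**Figure D3:**
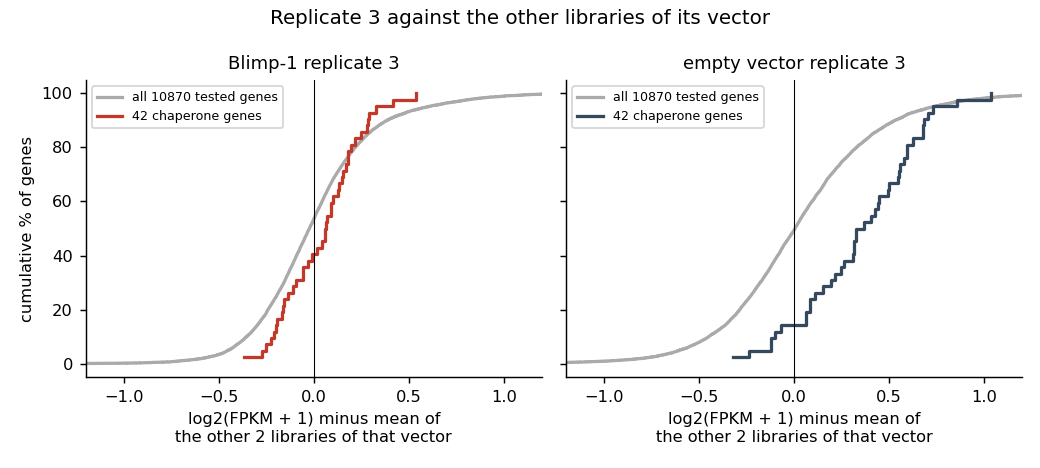
Cumulative share of genes, in percent, by the difference in log2(FPKM + 1) between replicate 3 and the mean of the other libraries of the same vector, for Blimp-1 (left) and the empty vector (right). The members (coloured) lie to the right of all 10870 tested genes (grey) with a median of 0.35 in the empty vector panel, and near them with a median of 0.06 in the Blimp-1 panel.

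The transcripts of the cytosolic chaperonin genes were at unequal FPKM. The TRiC ring holds each of its 8 subunits in equal number, but protein was not measured, and these values do not give subunit amounts. Cct3 was the lowest in every library, at 37.7, 46.4 and 43.2 FPKM with Blimp-1 and at 42.6, 41.8 and 68.0 FPKM with the empty vector. The highest subunit, which was Cct2 in both replicate 1 libraries and Cct5 in the other 4, exceeded it 4.32-, 3.23- and 4.05-fold in Blimp-1 replicates 1 to 3 and 3.69-, 3.75- and 3.19-fold in the empty vector. Summed over the 8 genes, TRiC was at 844, 773 and 867 FPKM with Blimp-1 and at 826, 757 and 1007 FPKM in the empty vector libraries, and the vectors overlapped, with empty vector replicate 3 the highest and replicate 2 the lowest. For 7 of the 8 genes empty vector replicate 3 was the highest library of its vector. Cct3 averaged 42.4 ± 4.39 FPKM with Blimp-1 and 50.8 ± 14.9 FPKM with the empty vector (SD, n = 3 each), and its log2 fold change was -0.22 (SE 0.21, limma adjusted p = 0.998) while it was 0.00 without empty vector replicate 3, -0.34 without empty vector replicate 2 and -0.14 without Blimp-1 replicate 1.

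Other TRiC subunits stayed closer. Cct7 was the member nearest to no change, at 109.5, 91.0 and 107 FPKM with Blimp-1 and at 101, 89.8 and 119 FPKM with the empty vector. The groups overlapped fully, and the 95% interval of its log2 fold change was -0.35 to 0.34. Tcp1, the founding subunit of the ring, was at 143, 97.8 and 120.1 FPKM with Blimp-1 and at 135, 83.6 and 133 FPKM with the empty vector, higher with Blimp-1 in pairs 1 and 2 and lower in pair 3. Cct4 had values higher by 0.10, 0.06 and 0.02 on the log2 scale in pairs 1 to 3, and the differences of Cct5 were -0.07, -0.06 and -0.31. Cct2, Cct6a and Cct8 had log2 fold changes of -0.03, -0.15 and -0.10.

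Prefoldin, a jellyfish-shaped complex that passes nascent actin and tubulin to TRiC, was represented by 4 genes among the members, and all 4 were lower with Blimp-1 in pair 3. Pfdn2 was at 36.0, 33.2 and 40.3 FPKM in Blimp-1 replicates 1 to 3, against 42.6, 36.0 and 55.9 FPKM with the empty vector. It was lower in 3 of 3 pairs while the vectors overlapped, with a log2 fold change of -0.27 (SE 0.18; 95% interval -0.69 to 0.15). Its limma adjusted p was 0.998, and 0.185 with the block. The log2 fold change was -0.10 without empty vector replicate 3 and -0.41 without empty vector replicate 2. With the block and both libraries numbered 3 left out it was -0.18 (limma adjusted p = 0.127). Pfdn1 was likewise lower in 3 of 3 pairs, at 41.96, 30.3 and 44.9 FPKM with Blimp-1 and at 44.2, 33.8 and 57.3 FPKM with the empty vector. Pfdn5, which also carries the name of a Myc-binding protein, was the most even of the 4, at 294, 278 and 299 FPKM with Blimp-1 and at 289, 291 and 302 FPKM with the empty vector. Pfdn4 was at 11.6 ± 1.34 FPKM with Blimp-1 and 12.9 ± 2.18 FPKM with the empty vector (SD, n = 3 each). Of its 3 transcript models the most abundant was at 6.08, 6.45 and 6.61 FPKM with Blimp-1, below 10.5, 9.39 and 8.20 FPKM with the empty vector, and a second was at 3.91, 6.20 and 4.20 FPKM with Blimp-1 and at 0.696, 1.94 and 5.88 FPKM with the empty vector. These transcripts were named after their values were seen and got no test. How the upstream quantification divided short single-end reads among such models was not tested.

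Of the HSP70 family, the constitutive Hspa8 was by far the most abundant, at 1233, 1517 and 1661 FPKM with Blimp-1 and at 1350.5, 1584 and 1528 FPKM with the empty vector. Its log2 fold change was -0.02 (95% interval -0.37 to 0.32), and it was the single member with lower values in pairs 1 and 2 and a higher one in pair 3, a pattern of 11.3% of tested genes. Hspa8, Ppia, Hspe1 and Hsp90ab1 belong to gene families with many near-identical processed copies in mammalian genomes, so their values depend on how reads shared with such copies were assigned. Hspa4, an HSP110-type exchange factor, was at 31.3 ± 3.27 FPKM with Blimp-1 and 29.3 ± 1.497 FPKM with the empty vector. Hspa14, a ribosome-associated relative, was at 21.1 ± 1.26 FPKM with Blimp-1 and 25.3 ± 7.65 FPKM with the empty vector (SD, n = 3 each), with the highest value, 34.1 FPKM, in empty vector replicate 3.

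Hsph1, the heat-inducible HSP110, had the largest positive log2 fold change of the members. It was at 12.5, 12.8 and 9.61 FPKM in Blimp-1 replicates 1 to 3, against 8.45, 9.39 and 11.4 FPKM with the empty vector. The Blimp-1 value was 1.48 and 1.37 times the empty vector value in pairs 1 and 2 and 0.842 times in pair 3. Over all libraries the log2 fold change was 0.23 (SE 0.16; 95% interval -0.15 to 0.62; limma adjusted p = 0.998, and 0.415 with the block). It was 0.36 without Blimp-1 replicate 3 and 0.15 without empty vector replicate 1. With the block and both libraries numbered 3 left out it was 0.46 and passed (limma adjusted p = 0.000816). That fit drops the pair in which Hsph1 was lower with Blimp-1, and it called 11.2% of tested genes. With the block and pair 1 or pair 2 left out instead, Hsph1 had 0.09 and 0.15 (limma adjusted p = 0.901 and 0.674).

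The partners of HSP70 comprised J proteins, which deliver substrates and stimulate ATP hydrolysis, and factors that exchange nucleotide or tag clients for degradation. Hspbp1, an exchange factor, had the largest negative difference of this group, with 11.1, 12.1 and 11.3 FPKM in the Blimp-1 libraries and 13.0, 11.7 and 21.1 FPKM with the empty vector. The 3 Blimp-1 values lay close together, and empty vector replicate 3 alone stood high. Its log2 fold change was -0.34 (SE 0.21, limma adjusted p = 0.998), and -0.09 without empty vector replicate 3. Stub1, which encodes the ubiquitin ligase CHIP, was at 22.8, 21.5 and 29.9 FPKM with Blimp-1 and at 25.5, 24.0 and 41.0 FPKM with the empty vector, lower in 3 of 3 pairs with overlap between the vectors. Its log2 fold change was -0.25 (SE 0.23; limma adjusted p = 0.998, and 0.201 with the block). It was -0.01 without empty vector replicate 3, -0.39 without empty vector replicate 2 or Blimp-1 replicate 3, and -0.16 without Blimp-1 replicate 2. These fits leave out 1 library of a pair. With the block and both libraries numbered 3 left out, the Stub1 log2 fold change was -0.15 (limma adjusted p = 0.193).

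Bag1, another exchange factor, was also lower in 3 of 3 pairs, at 57.0, 56.1 and 62.0 FPKM with Blimp-1 and at 61.7, 61.2 and 81.6 FPKM with the empty vector. The same held for the J protein genes Dnajb1 and Dnaja1, of which Dnaja1 was at 20.5, 23.2 and 19.7 FPKM with Blimp-1 and at 22.7, 25.0 and 25.3 FPKM with the empty vector. Dnaja2 and Dnajb6 had higher values in 3 of 3 pairs, by 0.16, 0.04 and 0.06 for Dnaja2 and by 0.05, 0.00 and 0.10 for Dnajb6 on the log2 scale. Dnajb1, the HSP40 induced by heat, averaged 25.6 ± 1.47 FPKM with Blimp-1 and 27.5 ± 1.70 FPKM with the empty vector, and Bag3, a stress-induced co-chaperone, 3.94 ± 0.496 FPKM with Blimp-1 and 3.87 ± 0.745 FPKM with the empty vector (SD, n = 3 each). The ribosome-bound J protein gene Dnajc2 was higher in pairs 1 and 2 and lower in pair 3, with log2 differences of 0.22, 0.11 and -0.38. Dnajc7 differed by at most 0.05 on this scale in each pair.

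HSP90 itself is made from a constitutive gene, Hsp90ab1, and an inducible one, Hsp90aa1. Hsp90ab1 was at 646, 469 and 669.7 FPKM with Blimp-1 and at 587, 409 and 659 FPKM with the empty vector, higher in 3 of 3 pairs, with a log2 fold change of 0.12 (95% interval -0.40 to 0.63). Hsp90aa1 was at 88.1, 106 and 109.5 FPKM with Blimp-1 and at 98.4, 99.4 and 159 FPKM with the empty vector, where replicate 3 stood high. The constitutive transcript exceeded the inducible one 7.33-, 4.42- and 6.11-fold in Blimp-1 replicates 1 to 3 and 5.97-, 4.12- and 4.15-fold with the empty vector.

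All 8 genes of HSP90 and its partners were highest, among empty vector libraries, in replicate 3. Ahsa1, which encodes the activator of the HSP90 ATPase, had the most negative log2 fold change of the members. It was at 23.0, 36.2 and 32.2 FPKM in Blimp-1 replicates 1 to 3, against 31.6, 39.8 and 54.1 FPKM with the empty vector. Each Blimp-1 value was below that of its own number, at 0.728, 0.909 and 0.594 times, yet 36.2 FPKM in Blimp-1 replicate 2 exceeded 31.6 FPKM in empty vector replicate 1. The log2 fold change was -0.44 (SE 0.24; 95% interval -0.99 to 0.12; limma adjusted p = 0.998, and 0.163 with the block). It was -0.24 without empty vector replicate 3 and -0.25 without Blimp-1 replicate 1. With the block and both libraries numbered 3 left out it was -0.29 and passed (limma adjusted p = 0.0252).

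Fkbp4, an immunophilin of steroid receptor complexes, was at 27.0, 28.3 and 34.1 FPKM with Blimp-1 and at 31.2, 26.5 and 59.9 FPKM with the empty vector. Its log2 fold change of -0.30 (SE 0.29, limma adjusted p = 0.998) became 0.04 without empty vector replicate 3 and -0.53 without empty vector replicate 2. With the block and both libraries numbered 3 left out it was -0.05. Fkbp5, a relative induced by glucocorticoids, was slightly higher in 3 of 3 pairs, by 0.03, 0.25 and 0.02 on the log2 scale. Cdc37, which brings kinases to HSP90, was the most even, at 89.3, 86.6 and 91.7 FPKM with Blimp-1 and at 91.3, 88.5 and 95.3 FPKM with the empty vector. The adaptor gene Stip1 averaged 45.9 ± 8.28 FPKM with Blimp-1 and 49.3 ± 14.5 FPKM with the empty vector, and Ptges3, which encodes the p23 co-chaperone, 40.1 ± 3.14 FPKM with Blimp-1 and 45.1 ± 11.5 FPKM with the empty vector (SD, n = 3 each).

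Hspe1, Hspd1 and Hspa9, of the mitochondrial matrix, were higher with Blimp-1 in pairs 1 and 2 and lower in pair 3, as were 11.8% of tested genes. Hspe1, the HSP10 lid, was at 121, 108 and 120.2 FPKM in Blimp-1 replicates 1 to 3, against 109, 84.9 and 149 FPKM with the empty vector. Hspd1, the HSP60 chamber gene that shares its upstream region, was at 48.3, 48.4 and 43.0 FPKM with Blimp-1 and at 43.1, 42.2 and 62.8 FPKM with the empty vector. For both, the Blimp-1 libraries lay within the empty vector range. The Hspe1 level was 2.504, 2.23 and 2.79 times that of Hspd1 with Blimp-1 and 2.53, 2.01 and 2.37 times with the empty vector. Hspa9, the mitochondrial HSP70, was at 75.1, 48.0 and 52.3 FPKM with Blimp-1 and at 70.2, 36.2 and 60.1 FPKM with the empty vector, with the same order by pair.

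Log2 fold changes over all libraries were 0.06 for Hspe1, -0.06 for Hspd1 and 0.10 for Hspa9 (limma adjusted p = 0.998 each). With the block and both libraries numbered 3 left out, Hspe1 (0.25, limma adjusted p = 0.0271) and Hspa9 (0.25, limma adjusted p = 0.0457) passed, and Hspd1 (0.18, limma adjusted p = 0.114) did not. That fit drops the pair in which these genes were lower with Blimp-1. With pair 1 or pair 2 left out instead, Hspe1 had 0.02 and -0.08 and Hspa9 0.10 and -0.05, and neither passed. The mitochondrial HSP90, Trap1, was at 24.5 ± 2.40 FPKM with Blimp-1 and 27.9 ± 5.37 FPKM with the empty vector, and the matrix J protein gene Dnaja3 at 15.9 ± 2.45 FPKM with Blimp-1 and 15.1 ± 1.10 FPKM with the empty vector (SD, n = 3 each).

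**Figure D4:**
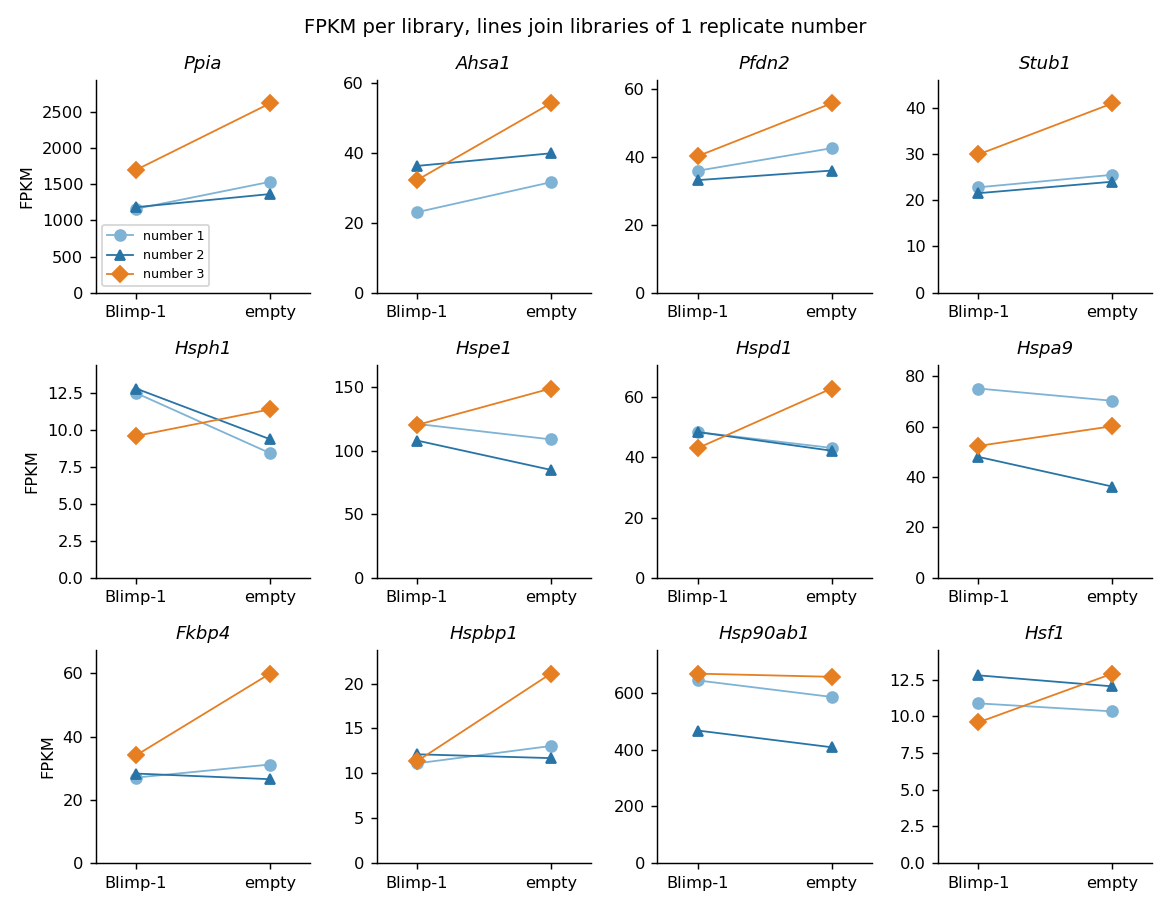
FPKM of 12 members in each library, Blimp-1 left and empty vector right, with lines joining libraries of the same replicate number and each axis starting at 0. Ppia, Ahsa1, Pfdn2 and Stub1 are lower with Blimp-1 along all 3 lines, while for Hsph1, Hspe1, Hspd1, Hspa9 and Hsf1 the orange line of number 3 slopes against the other lines.

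The cyclophilins are prolyl isomerases, and Ppia, cyclophilin A, is the cytosolic target of cyclosporin. Ppia was at 1162, 1184 and 1701 FPKM in Blimp-1 replicates 1 to 3, against 1535, 1366 and 2622 FPKM with the empty vector. In each pair the Blimp-1 value was the lower one, at 0.757, 0.867 and 0.649 times, but 1701 FPKM in Blimp-1 replicate 3 exceeded empty vector replicates 1 and 2. The means were 1349 ± 305 FPKM with Blimp-1 and 1841 ± 682 FPKM with the empty vector (SD, n = 3 each). Its log2 fold change was -0.41 (SE 0.27; 95% interval -1.04 to 0.22; limma adjusted p = 0.998, and 0.144 with the block), and it passed with the block when both libraries numbered 3 were left out (-0.30, limma adjusted p = 0.00225). Without the block, leaving out empty vector replicate 3 gave -0.13, and leaving out empty vector replicate 2 gave -0.60. Ppid, an HSP90-binding cyclophilin, was at 19.1, 21.5 and 21.2 FPKM with Blimp-1 and at 18.3, 21.5 and 30.4 FPKM in the empty vector libraries, and again replicate 3 of the empty vector stood alone.

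In the fit with the block and both libraries numbered 3 left out, which rests on 4 libraries and 1 residual degree of freedom, 3 of 42 members were higher, Hsph1, Hspa9 and Hspe1, and 2 were lower, Ahsa1 and Ppia. These are 7.14% and 4.76% of the members, against 5.0% and 6.19% of tested genes (11.9% against 11.2% in either direction), so both shares are near the background. Leaving out the pair numbered 1 or 2 instead called 0 of 42 members, against 0.0276% and 0.11% of tested genes. A pattern of higher values in pairs 1 and 2 with a lower value in pair 3 was shown by 11 members, 26.2% against 11.8% of tested genes. They were Tcp1, Cct6a, Cct7, Hspa4, Hsph1, Dnajc2, Hspa9, Hspd1, Hspe1, Hsf1 and Ppid.

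Hsf1, the regulator, was at 10.9, 12.8 and 9.58 FPKM with Blimp-1 and at 10.3, 12.0 and 12.9 FPKM with the empty vector, with a log2 fold change of -0.08 (95% interval -0.43 to 0.27). Of the 4 members with a 3-unit element, Hspe1, Hspd1 and Hsph1 showed the pattern of the previous paragraph, and Dnajb6 was higher in 3 of 3 pairs by at most 0.10. Their median log2 differences in pairs 1 to 3 were 0.16, 0.27 and -0.27, against -0.03, 0.03 and -0.34 for the 21 members whose windows held no element. The 12 members with a 2-unit form, which include these 4, had medians of -0.01, 0.01 and -0.31. Hspe1 and Hspd1, which share a single stretch, were counted as separate genes in these medians. Tcp1, Cct7 and Hspa4, whose windows held no element, also showed the pattern of Hspe1, Hspd1 and Hsph1. So did Cct6a, with a 2-unit form only, and Dnajc2, Hspa9, Hsf1 and Ppid, which had no window. No test was made of the differences between members with and without an element.

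Outside the members, 72 other heat shock, chaperone and co-chaperone genes were looked up and 61 were tested. None passed in the fit with or without the block over all 6 libraries, and their median log2 fold change was -0.02. At an unadjusted p below 0.05, limma without the block had 0 of them, and with the block 7 were higher and 12 lower (11.5% and 19.7%, against 9.75% and 10.7% of tested genes). The vectors did not overlap for Sgta, Unc45a, Grpel1 and Clpp, all 4 lower with Blimp-1 (6.56%, against 2.34% of tested genes). Higher without overlap were 0 of the 61, against 2.29%. Lower values in 3 of 3 pairs were seen for 21 (34.4%, against 22.8%) and higher ones for 10 (16.4%, against 22.8%). In pair 3, 44 of the 61 were lower with Blimp-1 (72.1%, against 51.1% of tested genes), and empty vector replicate 3 was above the other empty vector libraries for 28 (45.9%, against 37.9%). Pfdn6, a prefoldin subunit, and Aarsd1 had the most negative log2 fold changes, -0.41 and -0.35, and Bag4, an HSP70 partner, followed in absolute size at 0.30. Pfdn6 was at 56.7, 40.7 and 63.9 FPKM with Blimp-1 and at 66.7, 54.0 and 96.5 FPKM with the empty vector, lower in 3 of 3 pairs as Pfdn1 and Pfdn2 were. Vbp1, listed with Pfdn6 among chaperonin and prefoldin partners, was not. Its log2 differences in pairs 1 to 3 were 0.07, -0.07 and 0.14. With the block and both libraries numbered 3 left out, a fit on 4 libraries, 4 of the 61 passed, 3 higher and 1 lower with Blimp-1 (4.92% and 1.64%, against 5.0% and 6.19% of tested genes), which is no larger a share than the background. Bag4, the HSP70 adaptor gene St13 and Hsf2, a second heat shock factor, were the higher ones (0.27, 0.27 and 0.35; limma adjusted p = 0.047, 0.0141 and 0.0112), and Pfdn6 was the lower one (-0.32, limma adjusted p = 0.00825). The heat-inducible HSP70 genes Hspa1a and Hspa1b, near-identical copies, were low. Hspa1a was at 4.20, 0.201 and 0.639 FPKM with Blimp-1 and at 0.698, 0.310 and 0.328 FPKM in the empty vector libraries. Hspa1b was at 4.74, 0.235 and 0.798 FPKM with Blimp-1 and at 0.753, 0.415 and 0.656 FPKM with the empty vector. Both stood apart in Blimp-1 replicate 1 only, were not tested, and were named after their values were seen.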

How the data were processed

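RNA-seq libraries of CD4 T cells, 3 per vector, were compared. The authors deposited 1 FPKM value per RefSeq transcript and library, in 29868 rows. The submitters' processing notes list CASAVA 1.8.2, Cufflinks 2.2, Partek 6.6 and mm9 without saying what each did. What aligned the reads, with which annotation, strand setting and filters, is not given in the sources used here. Transcripts were named by RefSeq accession (29310, from a GRCm38.p6 table used for names and promoter sequence only) or deposited symbol, and summed per gene. Hsf1 was matched by accession, since its deposited symbol carries a suffix. A gene entered the test if 3 or more libraries reached 1 FPKM, which left 10870. The values log2(FPKM + 1) were fitted by limma (version 3.58.1, under R 4.3.3) with a variance trend, and p-values were adjusted by Benjamini-Hochberg over these genes. This scale understates changes of low genes. The fit was also run on simulated data of normal noise and a shared pair effect. That simulation held no outlying library and no difference in depth, so it says nothing on either. Alternatives changed the pseudocount, the low-value filter, the scaling, the weights of libraries, the way transcripts were joined, the replicate block and the libraries included.

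The labels call the libraries independent biological replicates but do not say what a number marks. After subtracting each vector's mean, libraries of the same number had correlations of 0.80, 0.81 and 0.70 across genes, so numbers were taken to pair them. Depth was estimated from the FPKM value of 1 read in genes with 1 transcript, with an assumed fragment length of 200 bases. Members and lists were chosen with earlier results of these data known. Values per library are given for the 8 members with the largest absolute log2 fold changes, the 3 most abundant, Hsf1, the member nearest to no change, members passing any fit, and others that were added after their values were seen, to describe a role. A value listed at 0 may be a failed estimate, and FPKM shows shares of the RNA pool.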

Additional observations from a re-analysis of the deposited data

How the results depend on the processing

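Over 18 alternatives the count of members called stayed at 0, except with the replicate block and both libraries numbered 3 left out (3 higher, 2 lower). Over all genes the counts higher and lower were 1 and 1 with the replicate block, 1 and 2, 3 and 9, and 543 and 673 with the block and the libraries numbered 1, 2 or 3 left out, and 1 and 0 with median scaling and with array weights. Leaving out single libraries gave 0 to 1 gene higher and no gene lower. The members' median log2 fold change ran from -0.165 to 0.01.

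Sign changes are listed for the members with the 8 largest differences, the 3 most abundant, Hsf1, Cct7 and those passing any fit. Of these, the log2 fold changes of 8 changed sign under some alternative. Members outside this choice changed sign too, among them Tcp1 (-0.169 to 0.196), Hspd1 (-0.187 to 0.178) and Hsp90aa1 (-0.345 to 0.0257). Others, such as Cdc37 (-0.0644 to -0.00313), did not. Cct7 was 3.42e-05 with median scaling, 0.0651 with quantile normalization, 0.0411 with array weights and 0.0705 with the block without number 3. Hsf1 was 0.0242 with array weights and 0.0743 with the block without number 3. Hspa8 was 0.00054 with quantile normalization, 0.0184 with array weights and 0.0292 with the block without number 1. Hspa9 was -0.0732 with array weights and -0.0510 with the block without number 2, and Hspe1 was -0.0776 there. With single libraries left out, Cct3 ran from -0.341 to 0.00301, Cct7 from -0.0978 to 0.104, Fkbp4 from -0.530 to 0.0432, Hsf1 from -0.181 to 0.00967, Hsp90ab1 from -0.0824 to 0.281, Hspa8 from -0.118 to 0.0972, Hspa9 from -0.177 to 0.291 and Hspe1 from -0.130 to 0.271. Cct3 and Fkbp4, both among the 8 largest differences, were above 0 only without empty vector replicate 3 among these. Without it Stub1, Hspbp1, Ppia and Pfdn2 were -0.0141, -0.0937, -0.125 and -0.105. Leaving out that library alone keeps Blimp-1 replicate 3, its pair. With the block and both libraries numbered 3 left out, the same genes in that order were -0.153, -0.0833, -0.304 and -0.177. The causes were not tested. Depth was lowest in empty vector replicates 3 and 1 (18.2 and 19.4 M reads), which bears on low members such as Bag3.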
